A study of Oryza sativa with 20 samples.

Results

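The genes described here are 9 members of the rice RNA silencing machinery, 4 Dicer-like genes (DCL1, DCL2a, DCL3a and DCL4) and 5 Argonaute genes (AGO1d, AGO2, AGO4a, AGO4b and AGO18), out of 21237 genes in the deposited table. They were picked by gene symbol or locus identifier: AGO2 (LOC4336991), AGO1d (LOC4342138) and AGO18 (LOC4343201) by gene symbol, and AGO4a (LOC_Os01g16870), AGO4b (LOC_Os04g06770), DCL1 (LOC_Os03g02970), DCL2a (LOC_Os03g38740), DCL3a (LOC_Os01g68120) and DCL4 (LOC_Os04g43050) by MSU7 locus. All 9 were found, and all 9 passed the filter on low counts, as did 21225 of the 21237 genes, so passing does not set them apart. Root RNA was sequenced from 5 rice cultivars with 4 libraries each. Azucena is an upland tropical japonica cultivar and Bala an upland indica cultivar. The remaining 3, Moddai Karuppan, Niyan Wee and Sarali, are treated as Sri Lankan, after the title of the series, which names Sri Lankan Indica II rice. No treatment, plant age or growth condition is given in the labels, so cultivar is the only labelled factor that separates the groups. Unrecorded differences in growth or handling between the cultivars cannot be told apart from it. Nothing says whether the 4 libraries of a cultivar came from separate plants, and the p-values measure the spread between these libraries.

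Dicer-like proteins cut double-stranded RNA into small RNAs, and Argonaute proteins bind these and use them to find matching transcripts or genomic loci. In plants the work is divided: DCL1 makes microRNAs, DCL4 and DCL2 make small interfering RNAs that act on transcripts and on viruses, and DCL3 makes those that direct DNA methylation together with Argonautes of the AGO4 type. RNA-dependent RNA polymerases supply much of the double-stranded RNA.

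Total counts per library lay between 23444550 and 31996643, but ribosomal RNA took a varying share. That share was 62.8 to 84.6% in Bala and 4.07 to 64.5% in the other 16 libraries, which left 3813615 to 10791187 counts in other genes in Bala and 10185142 to 28063068 elsewhere. Values are given as CPM (the count as a share of the library total, ribosomal RNA included, scaled by the TMM method of edgeR). Transcript lengths were not used, so levels are compared between cultivars and not between genes. Before TMM scaling, all 21237 genes of the deposited table reached 1 CPM in at least 3 libraries. Shares of all genes given below are therefore shares of genes that reached this level. Why some listed loci and markers were not found in the table was not tested. All 6 listed root markers were found and their summed level was 550 to 1428 CPM in Bala (median 930) and 260 to 935 CPM elsewhere (cultivar medians 346 to 469); the part of this in the comparisons with Bala was not tested. The 1 leaf marker found of 6 (the small subunit of Rubisco) stood at 0.128 to 3.61 CPM. The root sum rested mainly on Lsi1, Lsi2, AKT1 and PIP2-3. The root markers HKT1;5 (0.220 to 20.7 CPM) and NAS1 (0.415 to 50.7) overlapped the leaf marker, and a sum of 6 genes is not comparable with 1 gene. In whole roots, fewer cells of a type and less RNA per cell cannot be told apart.

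Of the 9 genes, 5 differed among the 5 cultivars (DCL2a, DCL3a, AGO4b, AGO1d and AGO18), where 28.4% of all genes tested did (edgeR quasi-likelihood F test, adjusted p below 0.05). AGO4a, DCL1, AGO2 and DCL4 did not pass. DCL2a stood highest in the Sri Lankan cultivars and lowest in Bala, DCL3a was lowest in Azucena, AGO4b was highest in Sarali, and AGO18 was highest in Azucena. AGO18 reached 1 CPM in at least 3 libraries, as all genes of the table did, only through Azucena. Leaving out 3 libraries that stood apart in earlier work on these data (replicates 2 and 3 of Niyan Wee and replicate 3 of Sarali, called the 3 doubted libraries below) ended the call of AGO1d (adjusted p = 0.0885) and not those of the other 4. AGO2 passed by DESeq2 (0.0305) and without Bala replicate 4 (0.0435) or both Bala replicates 3 and 4 (0.0319).

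**Figure D1:**
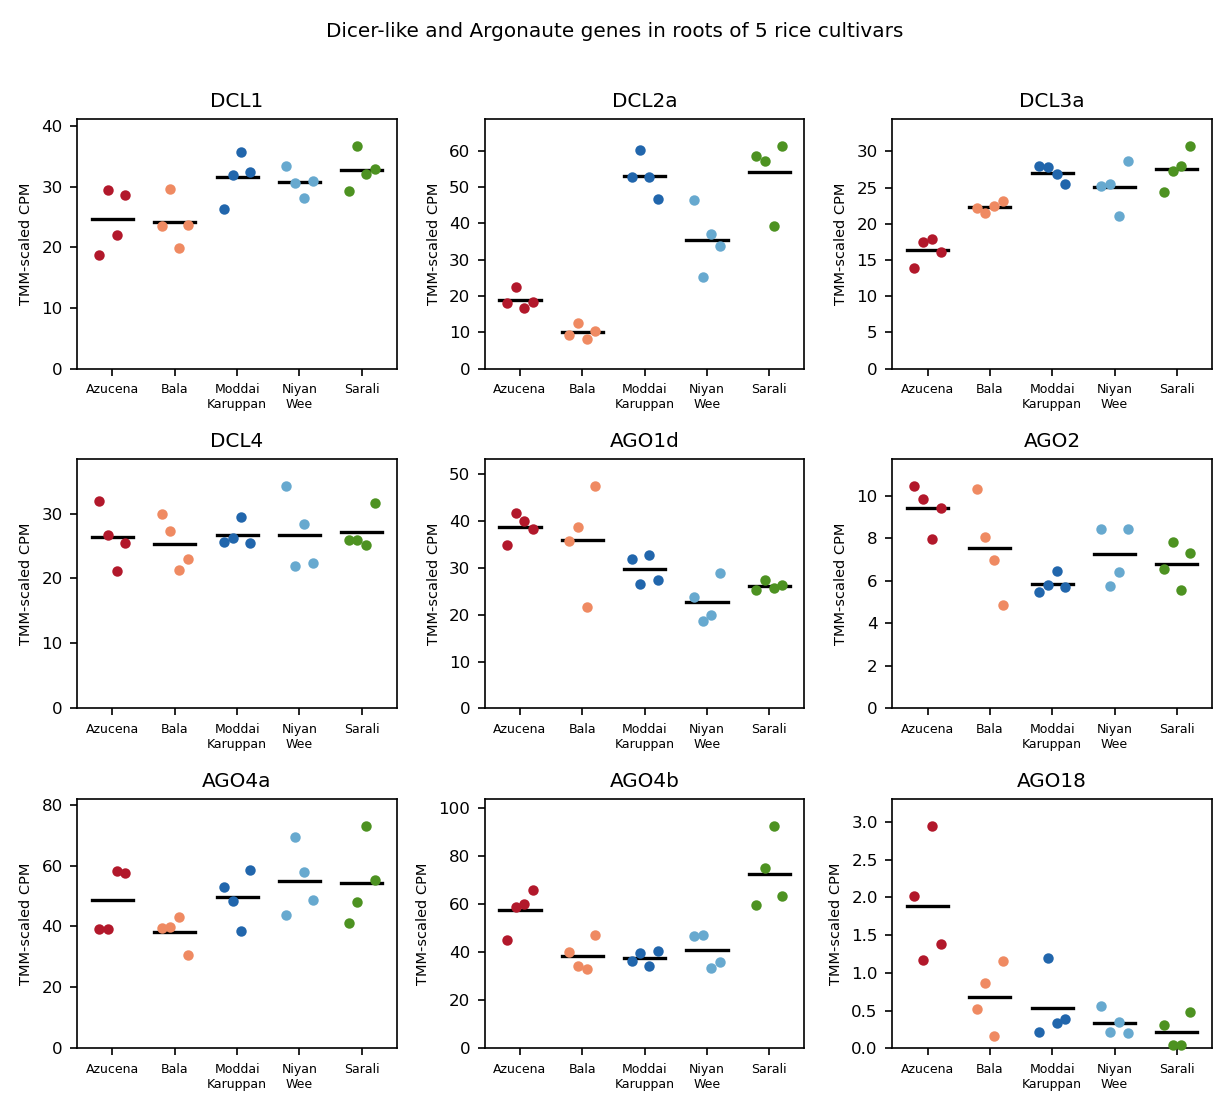
TMM-scaled CPM (vertical axes, each starting at 0) of the 9 genes in each library, grouped by cultivar; points are libraries in the order of replicates 1 to 4 and bars are means of 4. DCL2a spans 8.17 to 61.3 CPM with Bala at the bottom, whereas the 5 means of DCL4 lie between 25.4 and 27.2 CPM.

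Among the Dicer-like genes, DCL2a showed the clearest differences. In the Sri Lankan cultivars it stood at 52.7, 60.3, 52.8 and 46.7 CPM in Moddai Karuppan replicates 1 to 4, at 46.3, 25.1, 36.9 and 33.7 in Niyan Wee and at 58.5, 57.0, 39.3 and 61.3 in Sarali. In Azucena it stood at 18.0, 22.4, 16.7 and 18.4 CPM and in Bala at 9.34, 12.6, 8.17 and 10.3. The 4 Bala libraries lay below the 4 Azucena libraries, and these below each of the 12 Sri Lankan ones, with no overlap. DCL2a was 4.62-fold higher in the mean of the Sri Lankan cultivars than in Bala (log2 fold change 2.21 ± 0.17 SE, edgeR adjusted p = 1.81e-08). It ranked 206 by p among 21225 genes in the test of the 5 cultivars (adjusted p = 2.94e-08), and 3.92% of the 13099 genes averaging 5 CPM or more had a larger ratio of the highest to the lowest cultivar mean than its 5.36.

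In pairs of cultivars DCL2a passed in 7 of 10 tests, all but those within the Sri Lankan cultivars. Azucena was lower than Moddai Karuppan (log2 fold change −1.49, edgeR adjusted p = 8.84e-06), Niyan Wee (−0.91, 0.00135) and Sarali (−1.52, 6.97e-06). Bala was lower than the same cultivars, by −2.39 (5.26e-08), −1.81 (1.58e-06) and −2.42 (3.89e-08). Azucena stood 0.90 above Bala (0.0022; 0.0505 without Bala replicates 3 and 4). Azucena was also lower than the mean of the 4 others (−0.76 ± 0.15 SE, adjusted p = 0.00102), a mean that hides its higher level against Bala. Among the 3 Sri Lankan cultivars the lower mean of Niyan Wee, 35.5 ± 8.76 CPM against 54.0 ± 9.99 in Sarali and 53.1 ± 5.59 in Moddai Karuppan (mean ± SD, n = 4 each), did not pass (edgeR adjusted p = 0.0957), although it did without Niyan Wee replicate 1 (0.0302) or Sarali replicate 3 (0.0431).

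DCL2a shares reads with LOC_Os09g14610, another locus of the silencing list that carries no name in the reference table. Both held fractional counts in the same 13 libraries, and in each of these their values added up to a whole number. In the remaining libraries both counts were whole. LOC_Os09g14610 averaged 67.9 ± 9.88 CPM in Sarali, 64.6 ± 12.2 in Moddai Karuppan, 26.8 ± 3.43 in Niyan Wee, 9.15 ± 1.34 in Azucena and 8.00 ± 1.68 in Bala (mean ± SD, n = 4 each). It too was higher in the mean of the Sri Lankan cultivars than in Bala (log2 fold change 2.60, edgeR adjusted p = 1.15e-09). It was lower in Niyan Wee than in its Sri Lankan neighbours, and differed among the 3 (adjusted p = 4.69e-05).

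How the reads fell between these loci also varied with cultivar. DCL2a took 61.8 to 69.6% of their joint counts in Azucena, 52.9 to 61.6% in Bala, 53.6 to 61.8% in Niyan Wee, 42.5 to 47.7% in Moddai Karuppan and 42.4 to 45.2% in Sarali. With both loci added into a single row, which does not depend on how shared reads were divided, the sum was 122 ± 19.9 CPM in Sarali, 118 ± 17.3 in Moddai Karuppan, 62.3 ± 11.8 in Niyan Wee, 28.0 ± 3.15 in Azucena and 18.1 ± 3.30 in Bala (mean ± SD, n = 4 each). The sum differed among the 5 cultivars (edgeR adjusted p = 1.06e-09) and also among the 3 Sri Lankan ones (0.00164). Its log2 fold change in Azucena against the 4 others was −1.18, against −0.76 for DCL2a alone. Azucena minus Sarali was −2.12 for the sum (DCL2a alone −1.52), Azucena minus Moddai Karuppan −2.07 (−1.49) and Azucena minus Niyan Wee −1.15 (−0.91), all on the log2 scale. Azucena minus Bala was smaller for the sum, 0.63 (edgeR adjusted p = 0.017) against 0.90. Bala minus Sarali was −2.75 (−2.42), Bala minus Moddai Karuppan −2.70 (−2.39) and Bala minus Niyan Wee −1.78 (−1.81).

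**Figure D2:**
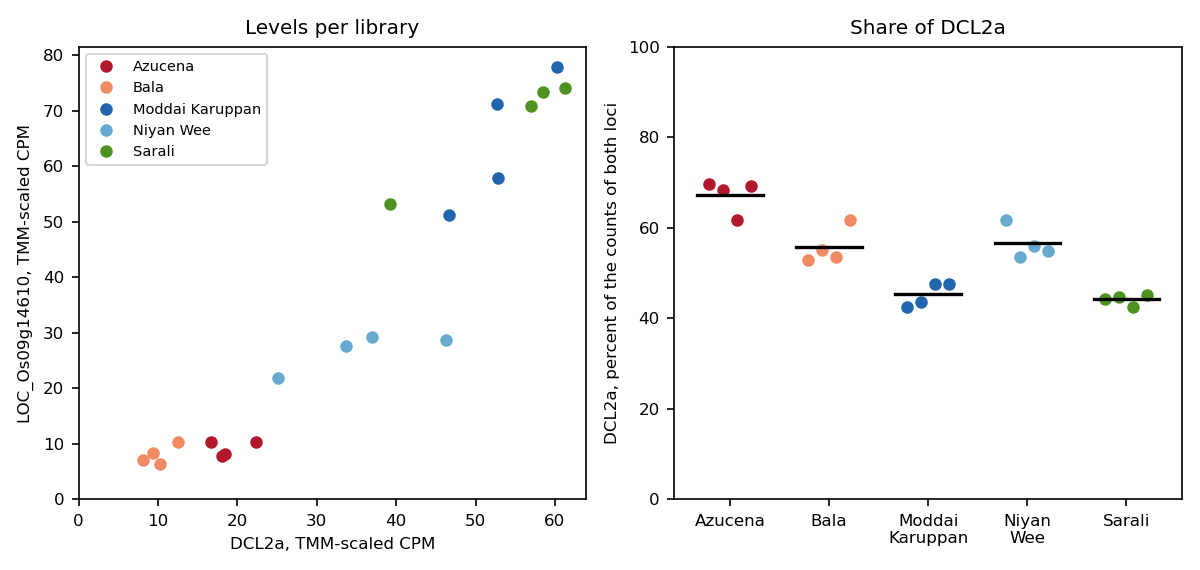
Left, TMM-scaled CPM of DCL2a (horizontal axis) and LOC_Os09g14610 (vertical axis) in each of 20 libraries, coloured by cultivar. Right, the percent of the joint counts of both loci that was assigned to DCL2a, with bars at the mean of 4 libraries. Azucena and Bala lie low on both axes, and the DCL2a share is highest in Azucena (61.8 to 69.6%).

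DCL3a, which makes the small RNAs that direct DNA methylation, was lower in Azucena than in each of the other cultivars. Azucena replicates 1 to 4 stood at 13.9, 17.4, 17.9 and 16.1 CPM and Bala at 22.1, 21.4, 22.4 and 23.1. The Sri Lankan libraries stood at 28.0, 27.9, 26.9 and 25.5 CPM in Moddai Karuppan, 25.2, 25.5, 21.1 and 28.6 in Niyan Wee and 24.4, 27.3, 28.0 and 30.7 in Sarali. All 4 Azucena libraries lay below the lowest of the 16 others (21.1). The difference from the mean of the 4 others was −0.64 ± 0.09 SE on the log2 scale (edgeR adjusted p = 4.07e-05), and each pair with Azucena passed, from −0.45 against Bala (0.0119) to −0.76 against Sarali (8.6e-05).

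DCL3a in Azucena kept its call against the 4 others without any single library (adjusted p at most 0.000485). The smaller step from Azucena to Bala ended with the rRNA share in the model (0.089) and without Bala replicates 3 and 4 (0.0847). Its spread within cultivars was the smallest of the 9 genes, with a mean coefficient of variation of 8.04% against a median of 18.4% over genes of at least 5 CPM.

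DCL1, the microRNA-making enzyme, was lower in Bala than in the mean of the Sri Lankan cultivars, while its difference between Azucena and the mean of the 4 others (−0.26 ± 0.12 SE on the log2 scale, edgeR adjusted p = 0.144) and each of its 10 cultivar pairs did not pass. In Bala it stood at 23.5, 29.6, 19.9 and 23.6 CPM and in Azucena at 18.7, 29.4, 21.9 and 28.5. The Sri Lankan libraries stood at 26.3, 31.9, 35.7 and 32.4 CPM in Moddai Karuppan, 33.4, 30.6, 28.1 and 30.9 in Niyan Wee and 29.3, 36.7, 32.03 and 32.8 in Sarali. The ranges overlapped. The Sri Lankan mean was 1.31-fold above Bala (log2 fold change 0.39 ± 0.13 SE, edgeR adjusted p = 0.0405), while the test among the 5 cultivars did not pass (0.0688). That test passed with the replicate block (0.0442), by DESeq2 (0.0281) and without Bala replicate 2 (0.031) or Azucena replicate 2 (0.0452).

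This DCL1 call ended with the rRNA share in the model (adjusted p = 0.324) and without Bala replicates 3 and 4 (0.447). It also ended without the 3 doubted libraries (0.0544) and without any of 10 single libraries: Bala replicate 1 (0.103), 3 (0.156) or 4 (0.11), Niyan Wee replicate 1 (0.0545) or 4 (0.0506), Sarali replicate 2 (0.0579) or 4 (0.0544), and Moddai Karuppan replicate 2 (0.0527), 3 (0.0605) or 4 (0.0564).

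DCL4, which makes the phased small interfering RNAs needed for rice leaf and shoot development, was the most even of the 9. Its means were 27.2 ± 2.99 CPM in Sarali, 26.7 ± 1.88 in Moddai Karuppan, 26.7 ± 5.85 in Niyan Wee, 26.3 ± 4.40 in Azucena and 25.4 ± 3.96 in Bala (mean ± SD, n = 4 each). The ratio of the highest to the lowest mean was 1.07, and 99.5% of the 13099 genes of at least 5 CPM had a larger one. Its greatest difference between cultivars, Bala against Sarali, was −0.10 ± 0.16 SE on the log2 scale (edgeR adjusted p = 0.769), and the test among the 5 gave 0.984.

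Among the Argonautes, AGO4b and AGO4a are effectors of DNA methylation guided by small RNAs, and of these only AGO4b passed a test. AGO4b stood at 59.5, 75.1, 92.6 and 63.3 CPM in Sarali and at 44.9, 58.9, 60.0 and 65.8 in Azucena. It stood at 40.3, 34.3, 32.9 and 47.1 in Bala, 36.2, 39.7, 34.3 and 40.7 in Moddai Karuppan and 46.7, 47.3, 33.6 and 36.0 in Niyan Wee. The Sarali libraries lay above all libraries of Bala, Moddai Karuppan and Niyan Wee and overlapped those of Azucena. On the log2 scale Bala minus Sarali was −0.91 (edgeR adjusted p = 0.000978), Moddai Karuppan minus Sarali −0.95 (0.0025) and Niyan Wee minus Sarali −0.83 (0.0072).

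AGO4b was the 1 gene of the 9 that differed among the 3 Sri Lankan cultivars (edgeR adjusted p = 0.0013), where 4.02% of all genes tested did; 2 of the 9 had an unadjusted p below 0.05 in that test. That call held without any single library (at most 0.00982), but the pair of Niyan Wee and Sarali ended with the rRNA share in the model (0.0684) and without the 3 doubted libraries (0.126). Against the mean of the 4 others Azucena did not pass (0.33 ± 0.13 SE, adjusted p = 0.0753), but it did without Sarali replicate 3 (0.0356), Azucena replicate 1 (0.0339) or the 3 doubted libraries (0.0356). In pairs Azucena was above Moddai Karuppan (0.61, adjusted p = 0.0135) and Bala (0.57, 0.0254). The call against Bala was lost without Bala replicate 2 (0.0661) or 3 (0.0811), without both Bala replicates 3 and 4 (0.076), and without Azucena replicate 2 (0.0582) or 4 (0.0878).

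For AGO4a the means ran from 38.2 ± 5.35 CPM in Bala to 54.9 ± 11.3 in Niyan Wee, with 54.4 ± 13.8 in Sarali, 49.6 ± 8.60 in Moddai Karuppan and 48.5 ± 10.9 in Azucena (mean ± SD, n = 4 each). None of its tests passed by edgeR (adjusted p = 0.228 among the 5 cultivars). The nearest was the Sri Lankan mean against Bala (0.47 ± 0.17 SE, edgeR adjusted p = 0.0619), which passed by DESeq2 (0.037) and without Niyan Wee replicate 1 (0.0486), Sarali replicate 1 (0.0419) or Moddai Karuppan replicate 3 (0.0464).

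AGO18 belongs to an Argonaute clade of grasses that in rice is induced by virus infection and raises antiviral defence by binding a microRNA that targets AGO1. It was scarce in all libraries and highest in Azucena, where replicates 1 to 4 stood at 2.02, 1.17, 2.95 and 1.38 CPM (46, 39, 98 and 40 counts). Bala stood at 0.519, 0.867, 0.159 and 1.15 CPM (2 to 20 counts) and Moddai Karuppan at 0.215, 1.20, 0.333 and 0.393 (8 to 30). Niyan Wee stood at 0.557, 0.220, 0.347 and 0.206 CPM (5 to 36 counts) and Sarali at 0.308, 0.0466, 0.0416 and 0.476 (1 to 13). Only Moddai Karuppan replicate 2 reached the lowest Azucena library.

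AGO18 was 4.61-fold higher in Azucena than in the mean of the 4 others (log2 fold change 2.20 ± 0.46 SE, edgeR adjusted p = 0.00157), a call that held without any single library (at most 0.0131). Without Azucena, too few libraries reached 1 CPM before TMM scaling for AGO18 to meet the level that all genes of the table met. Its tests with Azucena are therefore not independent of how it came to be in the table. In pairs it passed against Sarali (3.03, adjusted p = 0.0049) and Niyan Wee (2.45, 0.0179), the latter ending without Niyan Wee replicate 4 (0.0534) and without the 3 doubted libraries (0.108). Against Moddai Karuppan (1.83, adjusted p = 0.0582) and Bala (0.166) it did not pass. The 4 other cultivars held 1 to 36 counts per library, and no test among these passed. The edgeR adjusted p was 0.626 among the Sri Lankan cultivars and 0.28 for their mean against Bala. The part of depth in this was not tested. The 4 anther and meiosis markers found of 6 listed, of which PAIR1 and PAIR2 were at 0 in some libraries, summed to 3.96 to 6.72 CPM in Azucena and 3.17 to 6.18 in Bala. They summed to 3.47 to 4.70 CPM in Sarali, 2.86 to 4.43 in Niyan Wee and 1.91 to 3.06 in Moddai Karuppan; their part in the result was not tested.

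AGO1d, a member of the AGO1 clade that binds microRNAs and related small RNAs, was higher in Azucena and Bala than in Niyan Wee. Azucena replicates stood at 35.0, 41.7, 40.0 and 38.3 CPM and Bala at 35.6, 38.6, 21.7 and 47.5. Moddai Karuppan stood at 31.9, 26.6, 32.6 and 27.4 CPM, Niyan Wee at 23.8, 18.5, 20.0 and 28.8 and Sarali at 25.2, 27.4, 25.7 and 26.3. The Azucena libraries lay above all 12 Sri Lankan libraries, while Bala replicate 3 lay among the lowest of all.

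Among the 5 cultivars AGO1d passed (edgeR adjusted p = 0.0124). It was 1.37-fold higher in Azucena than in the mean of the 4 others (0.46 ± 0.14 SE on the log2 scale, adjusted p = 0.0215) and lower in the mean of the Sri Lankan cultivars than in Bala (−0.46 ± 0.14 SE, 0.0314). The former ended without Azucena replicate 2 (0.0771), 3 (0.0538) or 4 (0.0541). The latter ended without Bala replicate 1 (0.0725), 2 (0.0775) or 4 (0.226), with the rRNA share in the model (0.3), and without the 3 doubted libraries (0.0841).

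In pairs AGO1d passed for Azucena against Niyan Wee (0.77, edgeR adjusted p = 0.0053) and Sarali (0.57, 0.0321) and for Bala against Niyan Wee (0.65, 0.0231). Without the 3 doubted libraries these gave 0.11, 0.0513 and 0.251. The pair with Sarali also ended without any of the 4 Sarali libraries (0.0542 to 0.0735) or Azucena replicate 2, 3 or 4 (0.0575 to 0.0749). The pair of Bala and Niyan Wee ended without Niyan Wee replicate 2 (0.071) or 3 (0.0753) or Bala replicate 4 (0.102) and with the rRNA share in the model (0.314).

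AGO2 is known for antiviral silencing in Arabidopsis. In Azucena it stood at 10.5, 9.83, 7.95 and 9.41 CPM and in Bala at 10.3, 8.07, 6.98 and 4.87. It stood at 5.46, 5.81, 6.44 and 5.72 CPM in Moddai Karuppan, 8.43, 5.75, 6.43 and 8.45 in Niyan Wee and 6.55, 7.83, 5.57 and 7.29 in Sarali. Azucena overlapped Bala and Niyan Wee and lay above Moddai Karuppan and Sarali. AGO2 was 1.37-fold higher in Azucena than in the mean of the 4 others (0.46 ± 0.15 SE on the log2 scale, edgeR adjusted p = 0.0363), and in pairs only against Moddai Karuppan (0.68, 0.018; 0.0547 without Moddai Karuppan replicate 1).

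The AGO2 call in Azucena ended without Azucena replicate 1 (adjusted p = 0.121), 2 (0.0993) or 4 (0.0892), Niyan Wee replicate 3 (0.051) or Moddai Karuppan replicate 1 (0.0502) or 2 (0.0545). It also ended without Bala replicates 3 and 4 (0.0501) and without the 3 doubted libraries (0.0719). Counts of AGO2 were fractional in 5 libraries and those of DCL3a in 1, while AGO1d, AGO4a, AGO4b, AGO18, DCL1 and DCL4 held whole counts throughout.

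Set side by side, 5 of the 9 genes differed between Azucena and the mean of the 4 others, where 20.2% of all genes tested did. AGO18, AGO1d and AGO2 were higher (12.0% of all genes) and DCL2a and DCL3a lower (8.17%). Against Bala alone, DCL2a was higher in Azucena. The median log2 fold change of the 9 was −0.0068, against 0.018 over all genes, and the median size of the change was 0.46 against 0.29. The count was 3 without Azucena replicate 2 or 4. AGO18 is among the 5 although it met the level shared by all genes of the table only through Azucena.

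In the Sri Lankan mean against Bala 3 of the 9 passed, where 18.0% of all genes did. DCL2a and DCL1 were higher (7.81% of all genes) and AGO1d lower (10.2%). The median log2 fold change was 0.26, against 0.0073 over all genes, and the median size 0.39 against 0.30. DCL2a alone remained with the rRNA share in the model, without Bala replicate 1 or without Bala replicate 4. Over the 10 pairs, which share libraries, 22 of 90 tests of these genes passed, against 11.0% of the tests of all genes. Of all genes, 13.7% passed between Azucena and Bala, 20.0% between Azucena and Moddai Karuppan, 14.0% between Azucena and Niyan Wee and 18.0% between Azucena and Sarali. Bala differed in 15.2% from Moddai Karuppan, in 11.1% from Niyan Wee and in 11.5% from Sarali, and the Sri Lankan pairs differed in 2.37% (Moddai Karuppan and Niyan Wee), 1.75% (Moddai Karuppan and Sarali) and 2.88% (Niyan Wee and Sarali).

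**Figure D3:**
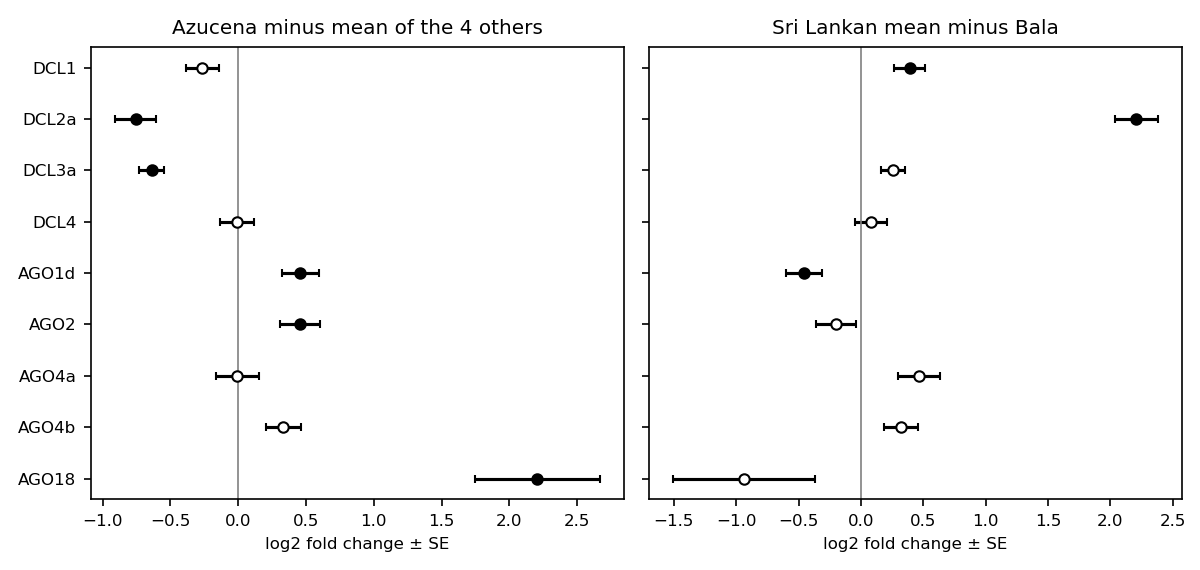
Log2 fold changes (horizontal axes, bars are ± 1 standard error from the edgeR fit) of the 9 genes in Azucena minus the mean of the 4 others (left) and in the Sri Lankan mean minus Bala (right). Filled points passed at an adjusted p below 0.05: AGO18, AGO1d, AGO2, DCL2a and DCL3a on the left, DCL1, DCL2a and AGO1d on the right.

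Across the 20 libraries, which share cultivars and depth, DCL2a went with DCL1 (Pearson r = 0.74 of log2 CPM) and with LOC_Os09g14610 (0.95), and AGO18 ran against DCL3a (−0.69). After the mean of each cultivar was taken off, these values were 0.41, 0.71 and −0.012. DCL2a and LOC_Os09g14610 share reads, so their values are not independent. AGO18 and DCL3a thus went in opposite directions between cultivar means and not among libraries of a cultivar. AGO4a and AGO1d had −0.53, and −0.42 within cultivars.

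Other loci of small RNA silencing were taken from a list of 33, of which 23 were found; 2 were left out because the reference names them differently. Of the 21 used, 12 carry a reference name and 9 do not, and the latter are given by identifier only. Of these 21, 9 differed among the 5 cultivars (28.4% of all genes did). Azucena differed from the mean of the 4 others in 7 (20.2% of all genes did), and 14 did not pass. Of the 7, 3 were higher (12.0% of all genes) and 4 lower (8.17%). Between the Sri Lankan mean and Bala 4 differed (18.0% of all genes did), with 3 higher (7.81%) and 1 lower (10.2%).

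SGS3, the RNA-binding partner that stabilises the template of an RNA-dependent RNA polymerase, was higher in Azucena and Bala than in the Sri Lankan cultivars. It stood at 40.5 ± 6.53 CPM in Azucena and 42.6 ± 5.66 in Bala, against means (± SD, n = 4 each) of 23.3 ± 5.60 in Sarali, 20.1 ± 1.92 in Moddai Karuppan and 19.2 ± 2.30 in Niyan Wee. The lowest library of Azucena and Bala (34.8) lay above the highest Sri Lankan one (28.6). The Sri Lankan mean was lower than Bala by a log2 fold change of −1.03 ± 0.13 SE (edgeR adjusted p = 9.74e-06), the reverse of DCL2a in the same libraries.

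The RNA-dependent RNA polymerases that carry a reference name did not move together. RDR4 stood at 4.44 ± 1.40 CPM in Azucena and between 1.32 and 1.67 on average in the others (log2 fold change 1.56 ± 0.26 SE, edgeR adjusted p = 0.000143). RDR2, which supplies the precursors that DCL3 cuts, was lower in Azucena at 8.43 ± 1.39 CPM, against means of 10.7 to 13.4 (−0.51 ± 0.13 SE, adjusted p = 0.00932; 0.0561 without Azucena replicate 1). SHL2, the polymerase that works with SGS3 in making phased small RNAs, was lower as well, at 10.1 ± 0.565 against means of 14.0 to 17.1 CPM (−0.54 ± 0.15 SE, 0.0125).

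In the test among the 5 cultivars RDR2 (edgeR adjusted p = 0.0324), SHL2 (0.0427) and AGO1b (0.0368) passed narrowly, and with the replicate block they gave 0.056, 0.0615 and 0.052. AGO1b, an AGO1 that binds microRNAs, stood at 81.0 ± 9.03 CPM in Sarali and between 61.0 and 67.8 on average in the others, and gave 0.148 without Sarali replicate 3. RDR2 gave 0.0961, and SHL2 0.1, without Azucena replicate 1. Further single libraries also ended these calls, 6 for RDR2, 12 for SHL2 and 9 for AGO1b counting those named.

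Among the loci without a reference name, LOC_Os02g50330 stood at 27.6 ± 4.38 CPM in Azucena, 10.0 ± 2.44 in Bala and 7.31 to 7.54 on average in the Sri Lankan cultivars (1.79 ± 0.17 SE, adjusted p = 1.04e-07). LOC_Os06g25250 was nearly absent from Bala, with 5 counts in replicate 1 and 0 in replicates 2, 3 and 4. It stood at 0.547 ± 0.21 CPM in Azucena (10 to 23 counts), 3.90 ± 0.699 in Moddai Karuppan, 3.72 ± 1.01 in Sarali and 3.68 ± 0.482 in the 4 libraries of Niyan Wee (means ± SD), and differed among the 5 cultivars (edgeR adjusted p = 3.28e-06). It was higher in the mean of the Sri Lankan cultivars than in Bala (2.52e-06). It passed as lower in Azucena against the mean of the 4 others (0.0229), which includes the high Sri Lankan levels, and this ended without Bala replicate 1 (0.846) or Azucena replicate 2 (0.0823) or 4 (0.0709). Its pattern had the same order as that of DCL2a, with Bala lowest, Azucena next and the Sri Lankan cultivars high. Fractional counts fell in the same 7 libraries for LOC_Os03g57560 and MEL1, 1 of the anther and meiosis markers. Whether these loci share reads was not tested. LOC_Os03g57560 stood at 9.06 ± 1.62 CPM in Sarali, 5.24 ± 1.30 in Azucena, 4.46 ± 3.31 in Moddai Karuppan, 1.28 ± 0.574 in Bala and 1.14 ± 0.463 in Niyan Wee (edgeR adjusted p = 0.000229). The Sri Lankan mean was higher than Bala for this locus (1.46 ± 0.43 SE, 0.025), which ended with the rRNA share in the model (0.397) and without Bala replicate 1 (0.0683), 4 (0.0989) or both 3 and 4 (0.17). Of the 21 loci, LOC_Os09g14610 and this one were the 2 that differed among the Sri Lankan cultivars, where 4.02% of all genes did. For LOC_Os03g57560 the edgeR adjusted p was 0.0021, and 0.0546 without the 3 doubted libraries.

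**Figure D4:**
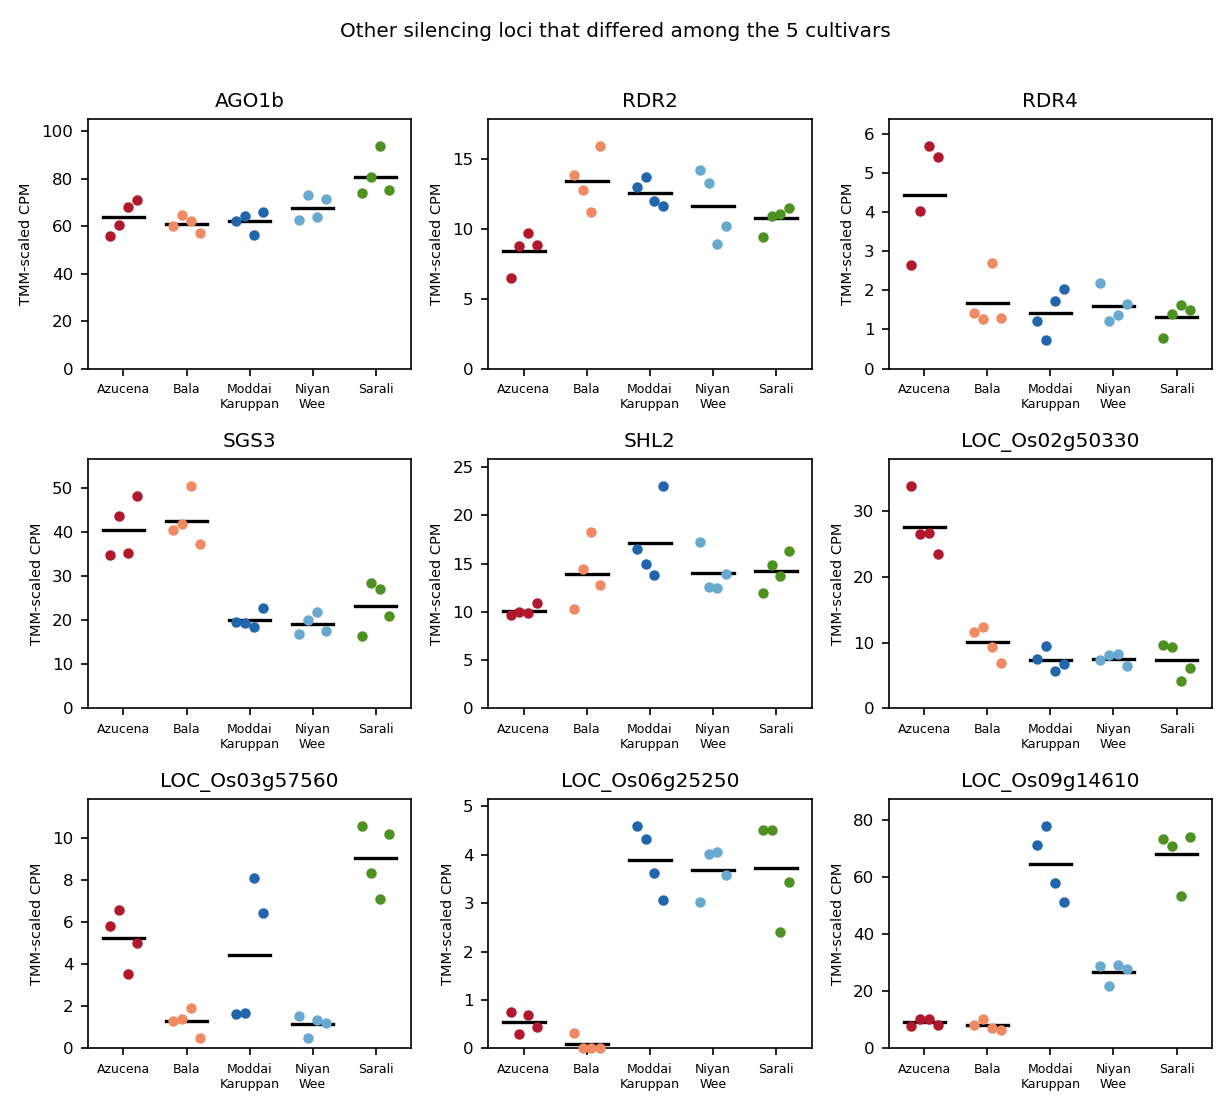
TMM-scaled CPM (vertical axes, each starting at 0) of the 9 other silencing loci that differed among the 5 cultivars; points are libraries in the order of replicates 1 to 4 and bars are means of 4. SGS3 is high in Azucena and Bala, LOC_Os02g50330 and RDR4 are high in Azucena, and LOC_Os06g25250 is at or near 0 in Bala.

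The other 12 loci did not pass among the 5 cultivars. They include AGO1a and AGO1c, the germline Argonaute MEL1, AGO7, PNH1, DRB1 and the DNA methyltransferase DRM2. So AGO1d and AGO1b passed in the AGO1 clade and AGO1a (edgeR adjusted p = 0.233) and AGO1c (0.698) did not.

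For each gene that passed among the 5 cultivars, the genes most alike in pattern were sought among 13077 genes of at least 5 CPM, by Pearson r of log2 CPM over the 20 libraries. For DCL2a they were LOC_Os01g16260 (0.96), LOC_Os08g40380 (0.95) and LOC_Os09g14610 (0.95), with 0.73, 0.37 and 0.71 within cultivars. The last shares reads with DCL2a, so its likeness is not that of an independent gene. For DCL3a they were LOC_Os01g49670 (0.94), LOC_Os02g22140 (0.94) and LOC_Os01g70380 (0.92), with 0.46, 0.54 and 0.51 within cultivars. For AGO1d they were LOC_Os02g35000 (0.86), LOC_Os03g18640 (0.86) and LOC_Os07g44710 (0.83), with 0.74, 0.80 and 0.70 within cultivars. For AGO4b they were LOC107279886 (0.89), LOC_Os12g08030 (0.86) and LOC9269970 (0.84), with 0.58, 0.43 and −0.14 within cultivars. For AGO18 they were LOC_Os07g19060 (0.81), LOC_Os01g38229 (0.79) and LOC9266366 (0.79), with 0.46, 0.47 and 0.75 within cultivars. All values within cultivars come from the same 20 libraries by which the genes were picked, so they are not an independent check.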

How the data were processed

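The deposited table holds expected counts, estimated read counts per gene and library, and 7.58% of the values are fractional. Per the submitters' processing notes, the tools were HISAT2 and edgeR 3.36.0 and the build was IRGSP-1.0, a japonica genome. How reads were counted, and how shared reads were divided, is not given in the sources used here. Per the labels' protocols, a stranded total RNA kit with rRNA depletion was used; the molecule label says polyA RNA. Whether reads that differ from the reference cultivar were lost was not tested.

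Values were rounded, filtered with filterByExpr (minimum count 10, 21225 genes left), TMM-scaled and tested with edgeR 4.0.16 in R 4.3.3 (glmQLFit, glmQLFTest), in 1 model with a mean per cultivar. P-values were adjusted over the whole table by the Benjamini-Hochberg method, with a threshold of 0.05. Standard errors were derived from the fitted change and its F value. The script was tested on simulated data with known changes in Azucena. Against the mean of the 4 others it recovered 56% of 2-fold and 87% of 4-fold changes, and 2.05% of its calls were false. A test that did not pass therefore does not show that a gene was unchanged. Counts in 23 ribosomal RNA genes stayed in the totals. Log2 CPM for correlations had a prior count of 2. Counts, such as those of AGO18, limit precision to their sampling error.

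Names came from a reference table of assembly ASM3414082v1, matched for 20839 of 21237 rows, except DCL1 and DCL3a, which it does not name and whose names follow from their MSU7 loci; no coordinates are used, and 2 rows without a gene were left out. Named are the 9 genes, the listed silencing loci that passed among the 5 cultivars or in either contrast, and the 3 genes most like each member that passed. AGO1a, AGO1c, MEL1, AGO7, PNH1, DRB1, DRM2 and the single root markers were named after their values were seen. The members and lists were chosen with earlier results of these data known.

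The labels number libraries R1 to R4 under a tag that speaks of a batch, and P1 or P2 as a pool, R1 and R2 lying in P1. Deviations from the cultivar means correlated above 0.1 in 15 of 40 pairs of libraries of the same number (median r 0.05, range −0.26 to 0.28). Pairs of different numbers had a median r of −0.016, and their share above 0.1 was not counted. The reported model has no replicate block; with the block the calls of RDR2, SHL2, AGO1b and DCL1 changed in the test among the 5 cultivars. Alternatives were RLE scaling, no filter, DESeq2 1.42.0, ribosomal RNA genes removed, the ribosomal RNA share, the pool or the replicate as a term, each pool alone, libraries left out, and DCL2a summed with LOC_Os09g14610. The last, and leaving out Niyan Wee replicates 2 and 3 and Sarali replicate 3, were chosen after seeing the data.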

Additional observations from a re-analysis of the deposited data

Results flagged for a closer look

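DCL4 in Sarali replicate 4, at 31.6 CPM, stood apart from the other 3 Sarali libraries, which lay between 25.2 and 26.0 CPM. It was 1 of 45 groups of 4 libraries examined in this way, where chance flags about 1 in 20, and the test of DCL4 among the 5 cultivars did not pass with or without it.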

How the results depend on the processing

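Each pool alone holds 2 libraries per cultivar. In pools P1 and P2 the number of the 9 genes that passed was 1 and 2 among the 5 cultivars (5 over all libraries), 0 and 0 among the Sri Lankan cultivars (1), 1 and 1 in Azucena (5), 1 and 1 against Bala in the Sri Lankan mean (3), and 7 and 7 of 90 pair tests (22). Of the other silencing loci, 5 passed among the 5 cultivars in P1 (9) and 3 in Azucena in P2 (7). By DESeq2 2 genes passed among the Sri Lankan cultivars and 5 against Bala, with the rRNA share in the model 2 and 1, with DCL2a summed 2 and 3, and without the 3 doubted libraries 1 and 1. Leaving out each library in turn, the counts lay between 5 and 6, 1 and 2, 3 and 6, 1 and 4, and 20 and 24 in the same order, and for the other loci between 6 and 9 among the 5 cultivars, 6 and 8 in Azucena and 3 and 6 against Bala. The replicate block left 5827 genes called among the 5 cultivars (6032 without it) and changed only the calls of RDR2, SHL2, AGO1b and DCL1 among those named.

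No signed difference between cultivars that had passed for a named gene turned its direction under the alternatives run; the tests among 5 or 3 cultivars have no direction. Differences that had not passed turned sign: AGO4a in Azucena (−0.0068) was 0.0012 with the ribosomal RNA share, 0.21 in P2 and 0.10 without the 3 doubted libraries, and −0.11 to 0.085 without single libraries. DCL4 in Azucena (−0.0090) was 0.15 in P1 and −0.11 to 0.082 without single libraries. DCL4 in the Sri Lankan mean against Bala (0.08) was −0.14 with the ribosomal RNA share, −0.091 without Bala replicates 3 and 4 and −0.13 in P1, and AGO2 (−0.20) was 0.15 in P2. The cause of these changes was not tested. Each pool alone has fewer libraries than the whole set. Over all genes, the number called among the 5 cultivars was 2498 in P1 and 2437 in P2. Among the Sri Lankan cultivars it was 854, against 1552 by DESeq2, 522 and 299 in the pools and 500 without the 3 doubted libraries. In Azucena it was 4277, and 2376 and 1931 in the pools. Against Bala it was 3816, and 1191 with the ribosomal RNA share, 1484 without Bala replicates 3 and 4, 1126 and 2472 in the pools and 2332 at the lowest without a single library (Bala replicate 4). Depth limits the values of AGO18, with 1 to 98 counts per library.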

Other observations

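LOC_Os03g57560, a silencing-list locus with no reference name, differed within Moddai Karuppan. Replicates 1 and 2, of pool P1, stood at 1.61 and 1.68 CPM, and replicates 3 and 4, of pool P2, at 8.09 and 6.45. The range was 0.472 to 1.52 CPM in Niyan Wee and 0.513 to 1.90 in Bala. Replicate 3 of Moddai Karuppan lay within the range of Sarali (7.11 to 10.6 CPM) and replicate 4 within that of Azucena (3.55 to 6.60). In Azucena the pools did not overlap either, with 5.80 and 6.60 CPM in P1 and 3.55 and 5.02 in P2. This was noticed after the values were seen and was not tested.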
